A study of Mus musculus with 16 samples.

Results

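The sites described here are the places where Hnf4a was listed in mouse embryonic fibroblasts 30 days after it was introduced, outside the blocks of repeated DNA at chromosome starts. They were taken from the authors' Hnf4a day 30 peak list on the mouse build mm9 by position alone. A peak was kept if it started at 3200000 or later on its chromosome, lay outside the block at 98500000 to 98510000 on chromosome 2, and lay outside the interval that holds the HoxA genes at 52100000 to 52220000 on chromosome 6. Of the 448 peaks in that list, 343 met the rule, and all lists of the series together held 4839 peaks. The 105 peaks left out were 77 near chromosome starts, 9 in the chromosome 2 block and 19 in the HoxA interval. Of the 77, 74 lay on chromosome 9, 2 on chromosome 12 and 1 on chromosome 11. Shares over the whole Hnf4a day 30 list therefore include many peaks from 1 stretch of chromosome 9. The members were chosen from the list itself, so their presence, scores and spacing are descriptions and not tests.

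Chromatin immunoprecipitation followed by sequencing was done on C57BL/6 fibroblasts prepared from embryos at 13.5 days post coitum. Each culture was infected with a single factor (Hnf4a, Foxa1, Foxa2 or Foxa3), and an antibody to that same factor was used to pull down chromatin on day 2 or day 30. There was 1 ChIP sample and 1 input for each factor and day, 16 samples in all, and only the 8 ChIP samples were used here as peak lists. No value therefore carries an error between samples, and the depth is unknown. The labels give neither the promoter that drove the factors nor whether embryos were pooled, and the identity of the cells cannot be checked from peak lists. The growth protocol speaks of iHep cells, while the stage given for every sample is MEF.

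Hnf4a is a nuclear receptor that binds DNA as a homodimer at direct repeats and controls much of the gene programme of hepatocytes. The Foxa proteins are forkhead factors that can engage DNA in closed chromatin, and in liver they share many regulatory regions with Hnf4a. Both kinds of factor are absent or low in fibroblasts, and together they are used to convert fibroblasts to hepatocyte-like cells. The question for each site is whether it stood alone or in a group, and whether a Foxa protein, introduced into separate cultures, was listed at the same place.

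The lower bound on position fell in a wide gap, close to the lower end of it. The first peak kept was on chromosome 19 (3851916 to 3851972, score 10.002), and the last left out were on chromosome 11 (3189756 to 3189812, score 8.48) and chromosome 12 (3109899 to 3110037, score 6.61). The chromosome 11 peak left out stood alone, 2911 kb from the next Hnf4a day 30 peak. The score is the authors' value for each peak, read as −log10 of a p-value. On chromosome 2 the nearest peaks kept ended at 93850857 and began at 103637622, while those left out ran from 98502420 to 98507457. On chromosome 6 the peak before the HoxA interval, at 51121807 to 51122099, was one of the strongest of all kept sites (score 14.2). The first peak left out there began at 52173051 and the last ended at 52190430, so no site lay close to either edge of the interval.

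Most sites stood alone. Of the 343 sites, 205 (59.8%) had no other Hnf4a day 30 peak within 20 kb, and 138 (40.2%) had one and formed 40 groups. In the whole Hnf4a day 30 list 53.6% of peaks had such a neighbour, a share that includes the dense blocks left out by the rule. The same share was 33.6% in the Foxa1 day 30 list of 3331 peaks, 8.62% in Foxa2 day 30 and 10.2% in Foxa3 day 30. It was 17.2% in Foxa1 day 2, 87.0% in Foxa3 day 2, and 0.0% in Foxa2 day 2 and Hnf4a day 2. These shares were not tested against each other.

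The split into grouped and lone sites did not hinge on the distance of 20 kb. It did depend on counting close peaks apart: with Hnf4a peaks within 500 bp merged, 64 of 285 sites were grouped, in 24 groups. Within groups the gap from one peak to the next had a median of 387.5 bp (quartiles 144.5 and 954.2 bp), and 74 of 98 gaps (75.5%) were at most 1 kb. The widest gap inside a group was 12.73 kb, and the nearest neighbour of any lone site was 43.9 kb away, so any limit between these 2 values gives the same grouped and lone sites. A limit above 40.55 kb would join the groups of 18 and 8 sites on chromosome 11 into 1. The first sites outside the limit were a pair on chromosome 19 (5801243 to 5801342 and 5845225 to 5845295). For lone sites the nearest other Hnf4a day 30 peak was at a median distance of 2377 kb, and 13 of the 205 had one within 100 kb.

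Groups were small and short in most cases. Of the 40, 24 held 2 sites and 8 held 3, and their span had a median of 1.29 kb and reached 15.45 kb. A few large groups held much of the rest: the 2 largest held 33 sites (23.9% of all grouped sites), and the 6 largest held 58 (42.0%).

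The largest group lay on chromosome 11 (120091618 to 120099287) and held 18 sites in 7.67 kb. Its scores ran from 5.10 to 12.2 with a median of 8.16, and its peaks covered 27.1% of the span. The first 3 peaks were set apart from the other 15 by the widest gap in the group, 1690 bp. A second group of 8 sites lay 40.55 kb upstream in coordinate order (120046638 to 120051067). It was the more densely covered of the pair, at 32.0% of 4.43 kb, and it held the widest peak of all kept sites, 414 bp.

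On chromosome 5 (143574274 to 143585201) 15 sites lay in 10.93 kb, with scores from 5.10 to 14.2 and a median of 8.44. The strongest of them (143578427 to 143578556, score 14.2) ranked 3 among all grouped sites. The group on chromosome 1 (165238968 to 165243013) held 7 sites with a median score of 7.56. The last of the 6 largest were a pair of groups with 5 sites each. One lay on chromosome 17 (84584468 to 84586496, 2.03 kb, median score 9.69). The other lay on chromosome 3 (99045171 to 99060624), where a single peak was separated by 12.73 kb from the other 4.

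**Figure D1:**
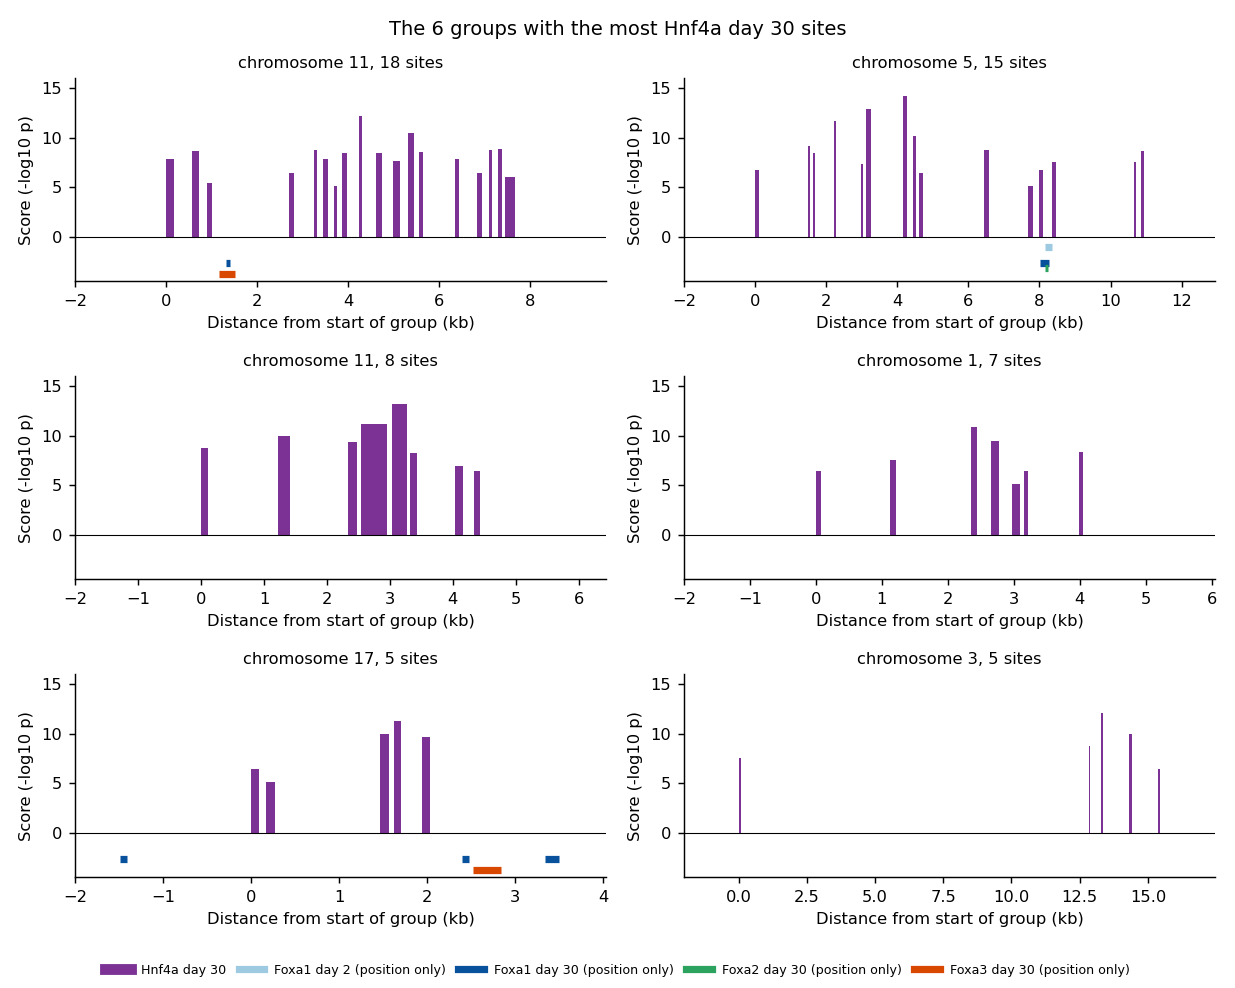
Position (kb from the first base of the group) and score (−log10 p) of each Hnf4a day 30 site in the 6 groups with the most sites, as bars; very narrow peaks are drawn wider so that they can be seen. Coloured marks below the axis give only the position of Foxa peaks within 2 kb of a group: they fall in the gap after the first 3 sites on chromosome 11, at the 12th and 13th sites on chromosome 5, and to either side of the group on chromosome 17.

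Foxa peaks were present at 3 of these 6 groups, and in 1 of the 3 they overlapped an Hnf4a site. In the group of 18 on chromosome 11, a Foxa1 day 30 peak (120092929 to 120093033, score 22.3) and a Foxa3 day 30 peak (120092787 to 120093125, score 17.8) lay within the group. Both sat in its widest gap, so that no site of the 18 overlapped them: the Foxa3 peak began 157 bp after the third site and ended 1194 bp before the next. In the group of 15 on chromosome 5, Foxa1 was listed on both days and Foxa2 on day 30 at nearly one place. The Foxa1 day 30 peak (143582301 to 143582551, score 30.9) overlapped 1 Hnf4a site, the Foxa1 day 2 peak (143582440 to 143582631, score 11.6) overlapped the next, and the Foxa2 day 30 peak (143582439 to 143582514, score 8.21) fell between them. The 2 highest-scoring Hnf4a sites of that group lay 3.74 and 4.76 kb away from the Foxa1 day 30 peak.

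At the group on chromosome 17, Foxa peaks flanked the sites without entering the group. A Foxa1 day 30 peak ended 1413 bp before the first site, others began 367, 1310 and 3029 bp after the last, and a Foxa3 day 30 peak began 496 bp after it. The remaining 3 large groups had no Foxa peak that close. The nearest was a Foxa1 day 30 peak 18241 bp from the group on chromosome 1, a Foxa3 day 30 peak 41719 bp from the group of 8 on chromosome 11, and a Foxa1 day 30 peak 310419 bp from the group on chromosome 3.

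The strongest grouped site was on chromosome 7 (26022999 to 26023080, score 15.25), in a group of 3, and its nearest Foxa peak was 272 kb away. The next were the site on chromosome 6 before the HoxA interval (score 14.2, Foxa1 day 30 peak at 4.52 kb) and the site on chromosome 5 already described. They were followed by a site in the group of 8 on chromosome 11 (120049677 to 120049901, score 13.2) and another in the group on chromosome 5 (143577397 to 143577541, score 12.9).

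Among lone sites the strongest was on chromosome 4 (150229671 to 150229797, score 14.2), with a Foxa1 day 30 peak 6.76 kb away. The following 4 were narrow, at 57 to 68 bp. They lay on chromosome 8 (86280815 to 86280871, score 14.009), chromosome 9 (24346508 to 24346567, score 13.3), chromosome 12 (16857574 to 16857637, score 12.6) and chromosome 13 (101421109 to 101421176, score 12.4). Only the site on chromosome 12 of these 4 had a Foxa peak within 20 kb, a Foxa1 day 30 peak at 15.1 kb. High Hnf4a scores were thus found with and without a Foxa peak in the neighbourhood.

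Scores and widths of grouped and lone sites covered nearly the same range. Grouped sites had a median score of 8.36 (quartiles 6.91 and 9.99) and lone sites 7.56 (6.41 and 8.76). A score of 10 or more was reached by 34 of 138 grouped sites (24.6%) and 32 of 205 lone sites (15.6%). The median width was 89 bp for grouped and 82 bp for lone sites, and 19 grouped (13.8%) and 49 lone sites (23.9%) had exactly the smallest width in the list, 57 bp. Sites in groups of 2 or 3 (median score 8.34, width 83 bp) and in groups of 4 or more (8.37, 103 bp) had like scores. For the 105 peaks left out by the rule the median score was 8.48 and the median width 113 bp, with 3 peaks at the smallest width. Scores recurred to the last decimal: the 343 sites held 124 different values, and the most frequent, 6.41183, was shared by 31 sites.

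**Figure D2:**
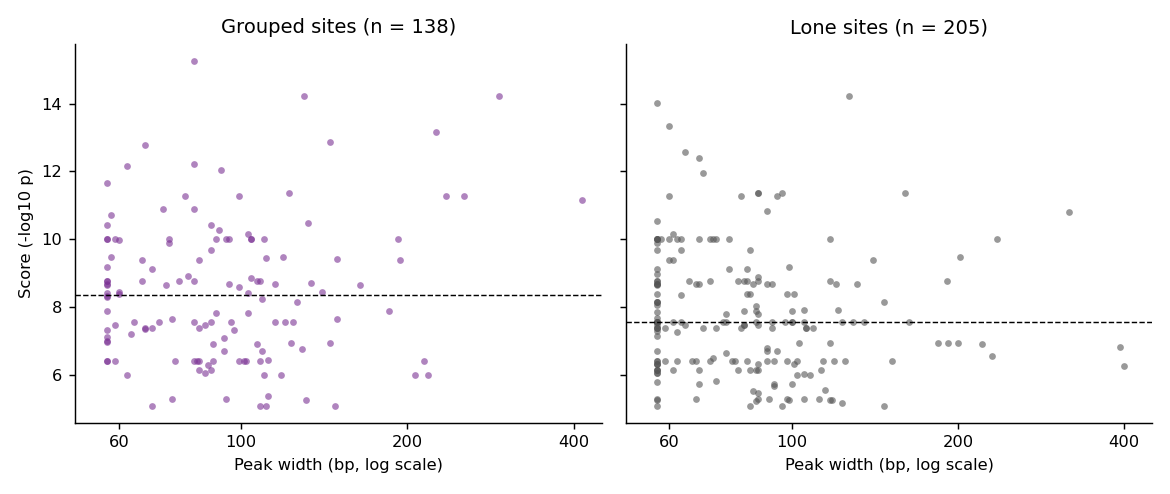
Score (−log10 p) against peak width (bp, log scale) for the 138 grouped sites (left) and the 205 lone sites (right), 1 point per site, with the median score as a dashed line. The column of points at the left edge of each panel is formed by sites of the smallest width, 57 bp.

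Sites were spread over all autosomes and the X chromosome, most of all on chromosome 11. It held 57 sites (16.6%) on 4.64% of the length, measured by the largest peak end in any list, and 26 of the 57 were in the neighbouring groups of 18 and 8. The other 31 still made it the chromosome with the most sites but for chromosome 5. That chromosome held 32, of which 22 were grouped, 15 of them in a single group. With each group counted once as a locus, chromosome 11 held 27 of 245 loci (11.02%) and chromosome 5 held 14 (5.71%). The Foxa1 day 30 list had 5.55% of its peaks on chromosome 11. Chromosome 1, the longest at 7.5% of the length, held 15 sites (4.37%) in 9 loci. The X chromosome held 3 sites (0.875%), all lone, on 6.35% of the length, close to the 0.871% of Foxa1 day 30 peaks there. These shares were not tested.

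**Figure D3:**
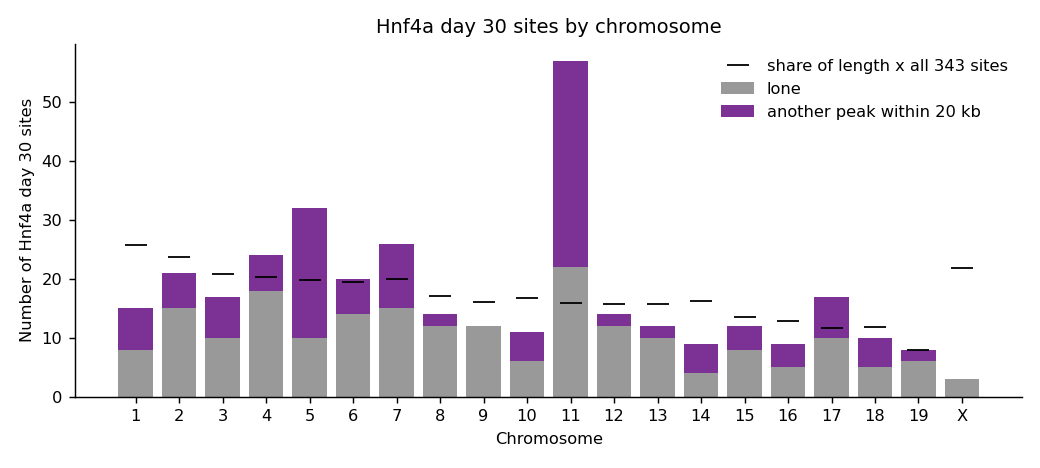
Number of Hnf4a day 30 sites on each chromosome, as bars split into lone sites (grey) and sites with another Hnf4a day 30 peak within 20 kb (purple); black dashes give the number that a share equal to the chromosome's length would hold. Chromosome 11, with 57 sites, stands highest above its dash, and the X chromosome, with 3, lies below it.

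Hnf4a and Foxa were rarely listed at the same bases. Of the 343 sites, 11 (3.21%, exact Clopper-Pearson 95% interval 1.61 to 5.67%) overlapped a peak of any of the 6 Foxa lists by at least 1 bp. In the whole Hnf4a day 30 list the share was 17.2%, and 66 of the 77 overlapping peaks were among those left out by the rule, so the lower share comes with the rule. All intervals cover counting error only, and neighbouring sites are not independent. Overlap was found for 4 of 138 grouped sites (2.90%, 0.795 to 7.26%) and 7 of 205 lone sites (3.41%, 1.38 to 6.91%), intervals that share most of their range.

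By the 1 bp rule the overlaps were mostly with Foxa3, although the Foxa1 day 30 list was far longer. By list, 5 sites overlapped Foxa3 day 30 (1.46%, background over all Hnf4a day 30 peaks 1.12%) and 4 overlapped Foxa3 day 2 (1.17%, background 15.6%). Foxa1 was overlapped by 2 sites on day 30 (0.583%, background 0.446%) and by 1 on day 2 (0.292%, background 1.34%). No site overlapped Foxa2 on day 30 or day 2 (background 0.0% for both). A limit of 3 counts allows a share of up to 0.875%, and the exact interval reaches 1.07%. None of the 105 peaks left out by the rule overlapped a day 30 Foxa peak, so the day 30 backgrounds count the same sites over a longer list. In sum 8 sites overlapped a Foxa3 peak and 3 a Foxa1 peak. Foxa3 day 30 peaks were wider, with a median of 237 bp against 119 bp for Foxa1 day 30, and the part of width in these counts was not tested. Under wider rules the excess of Foxa3 was not seen on day 30: within 500 bp Foxa1 day 30 and Foxa3 day 30 each had 11 sites. With centres within 500 bp, 10 sites matched Foxa1 day 30 and 9 matched Foxa3 day 30. On day 2 that rule matched 2 sites with Foxa1 and 7 with Foxa3.

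One site was listed with Foxa3 on both days. It was the lone site on chromosome 12 (55811150 to 55811243, score 11.3), which lay within a Foxa3 day 30 peak of 689 bp for 88 of its 94 bp (Foxa3 score 29.1). It overlapped the highest-scoring peak of the Foxa3 day 2 list (score 21.97) by only 2 bp.

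A set of 3 lone sites coincided almost base for base with a narrow Foxa3 day 2 peak. On chromosome 4 (70039187 to 70039249, score 8.35) all 63 bp lay in a Foxa3 day 2 peak of 78 bp. On chromosome 6 (103599168 to 103599254, score 7.79) 86 of 87 bp were shared with a peak of 86 bp, and on chromosome 13 (77578197 to 77578265, score 11.96) 64 of 69 bp with a peak of 71 bp. None of these 3 had a peak of any other Foxa list within 20 kb. Overlap with Foxa3 day 2 and with no day 30 Foxa peak was also the state of most peaks left out by the rule. Of those 105, 66 (62.9%) overlapped a Foxa3 day 2 peak and none a day 30 Foxa peak. The rule uses position alone and no sequence was read, so whether these 3 sites lie in repeated DNA was not tested. The Foxa3 scores there were 8.48, 6.90 and 7.34, above the 6.34 that was the median of that list.

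The remaining Foxa3 overlaps were with day 30 alone. The lone site on chromosome 19 (5845225 to 5845295, score 6.41) lay fully within a Foxa3 day 30 peak of 316 bp (score 13.5). The lone site on chromosome 15 (80085995 to 80086080, score 7.56) shared 56 bp with a weak Foxa3 day 30 peak (score 5.27). Of the grouped sites, the first of 4 on chromosome 16 (15887522 to 15887607, score 6.06) lay within a Foxa3 day 30 peak (score 6.46). The second of 2 on chromosome 11 (101507297 to 101507414, score 6.00) shared 114 bp with a strong one (score 25.7), and its Foxa3 day 2 neighbour (score 14.4) ended 112 bp before it. The partner of that site (101502884 to 101503005, score 11.4) had Foxa3 peaks of both days beside it, 31 bp away on day 2 and 66 bp on day 30, but no overlap.

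With Foxa1, the lone site on chromosome 18 (60820953 to 60821009, score 8.14) shared 48 bp with a Foxa1 day 30 peak (score 11.3). The other Foxa1 overlaps were the 2 neighbouring sites of the chromosome 5 group, which shared 76 bp with the day 30 peak and 10 bp with the day 2 peak.

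**Figure D4:**
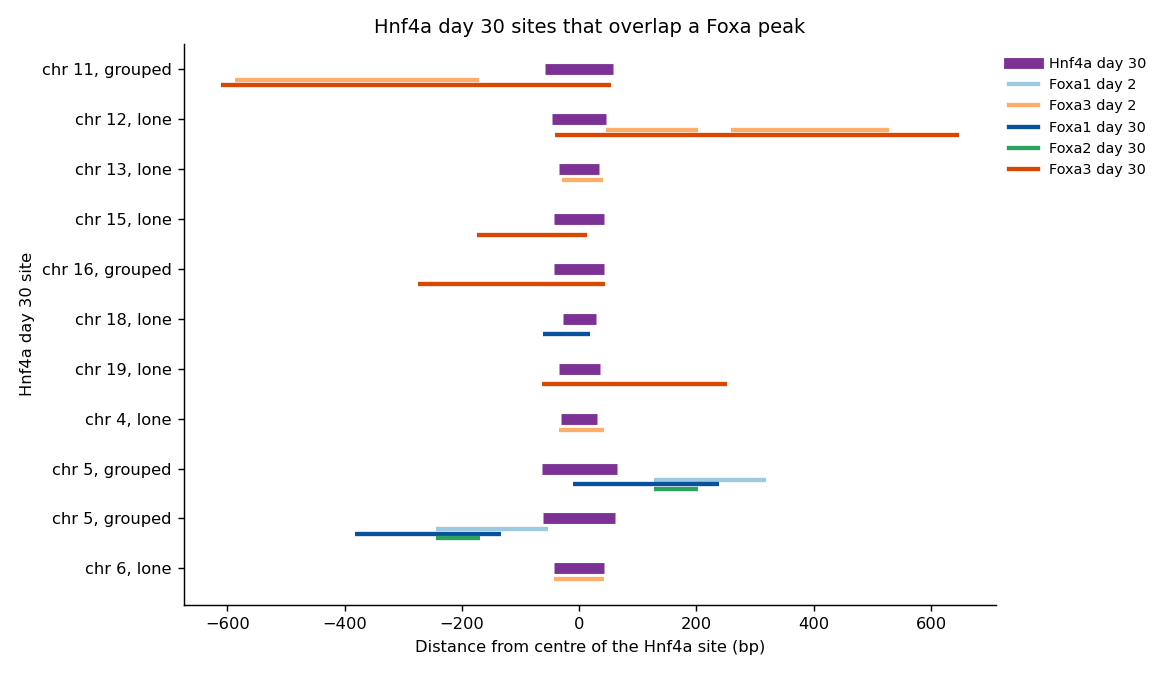
Extent of the 11 Hnf4a day 30 sites that overlap a Foxa peak (thick purple bars) and of every Foxa peak within 500 bp (thin coloured bars below), in bp from the centre of the Hnf4a site. The sites on chromosomes 4, 6 and 13 match a narrow Foxa3 day 2 peak, and those on chromosomes 12, 16 and 19 and the grouped site on chromosome 11 lie mostly within a broader Foxa3 day 30 peak.

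A Foxa peak was near more often than on the site. Within 500 bp of an edge, 23 sites (6.71%) had a peak of any Foxa list, against 23.4% of the whole Hnf4a day 30 list. Within 5 kb there were 76 (22.2%, whole list 35.7%), and within 20 kb 105 (30.6%, 25.8 to 35.8%), against 42.2% of the whole Hnf4a day 30 list, where 84 of the 105 peaks left out had one. None of those 105 had a Foxa1, Foxa2 or Foxa3 day 30 peak within 20 kb. The other 238 sites (69.4%), 79 grouped and 159 lone, had no Foxa peak of either day within 20 kb. Foxa1 day 30 was near the most sites, 89 within 20 kb (25.9%, background 19.9%), and had by far the most peaks, 3331. Foxa3 day 30 was near 43 sites (12.5%, background 9.6%) with 265 peaks, and Foxa2 day 30 near 24 (7.0%, background 5.36%) with 174. Each background here counts the same sites over the longer Hnf4a day 30 list. Much of this nearness came from the 2 largest groups, whose sites share the same few Foxa peaks. Without those groups, Foxa1 day 30 was near 56 of 310 sites (18.1%), Foxa3 day 30 near 25 (8.06%) and Foxa2 day 30 near 9 (2.90%).

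The day 2 lists were near fewer sites. Foxa1 day 2 had a peak within 20 kb of 23 sites (6.71%, background 23.7%), Foxa3 day 2 of 8 (2.33%, background 20.5%) and Foxa2 day 2 of 1 (0.292%, background 0.223%). Of the 23 sites near Foxa1 day 2, 15 were the chromosome 5 group beside 1 Foxa1 peak, and without the 2 largest groups 8 of 310 (2.58%) had one. Among the 105 sites with a near Foxa peak, 59 had Foxa1 or Foxa2 alone, 16 had Foxa3 alone and 30 had both, or 44, 16 and 12 without the 2 largest groups. Their median score was 7.81 and their median width 88 bp, against 7.56 and 83 bp for the 238 without, so neither separated the sites.

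Where a Foxa1 day 30 peak was within 20 kb, it was a median of 3311 bp away (quartiles 908 and 5873 bp). Within 500 bp, 11 sites had a Foxa1 day 30 peak (3.21%, whole list 2.46%) and 2 of them overlapped it. For Foxa3 day 30 the numbers were also 11 (whole list 2.46%) and 5, and for Foxa2 day 30 they were 4 (1.17%, whole list 0.893%) and 0. Without the 2 largest groups 7, 9 and 1 of 310 sites had a peak of these lists within 500 bp. No peak left out by the rule had a peak of these lists within 500 bp, so the whole-list shares count the same sites. The lone site on chromosome 8 (112089327 to 112089486, score 11.4) was the strongest of those beside a Foxa1 peak without touching it, at 160 bp.

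By peak count, grouped sites had a Foxa peak within 20 kb in 59 of 138 cases (42.8%, 34.4 to 51.5%) and lone sites in 46 of 205 (22.4%, 16.9 to 28.8%). At this distance most of the difference came from the 2 largest groups. Without them 26 of 105 grouped sites (24.8%, 16.9 to 34.1%) had one. Counted by locus, 12 of the 40 groups (interval 16.6 to 46.5%) and 46 of the 205 lone sites had one, and the intervals overlap. A group also spans more bases than a lone site. For Foxa1 day 30 alone the shares within 20 kb were 38.4% of grouped and 17.6% of lone sites, and 19.0% of grouped sites without the 2 largest groups.

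Within 50 kb the share by peak count was higher for grouped sites with and without those groups. Neighbouring sites are not independent, and the shares by locus are given below. A peak of any Foxa list was that near to 62.3% of grouped sites, to 53 of 105 (50.5%, 40.5 to 60.4%) without the 2 largest groups, and to 52 of 205 lone sites (25.4%, 19.6 to 31.9%), against 49.8% of the whole Hnf4a day 30 list. For Foxa1 day 30 alone the shares without the 2 largest groups were 44.8% of grouped sites and 41 of 205 lone sites (14.8 to 26.1%), against 27.2% of the whole list. The 8 sites of the second chromosome 11 group enter at this distance through the Foxa peaks of its neighbour. Counted by locus, 18 of the 40 groups (45.0%, interval 29.3 to 61.5%) had a Foxa peak within 50 kb. For lone sites the share was 25.4% (19.6 to 31.9%). The intervals overlap only between 29.3 and 31.9%, which does not decide whether the shares differ, and no test was made.

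**Figure D5:**
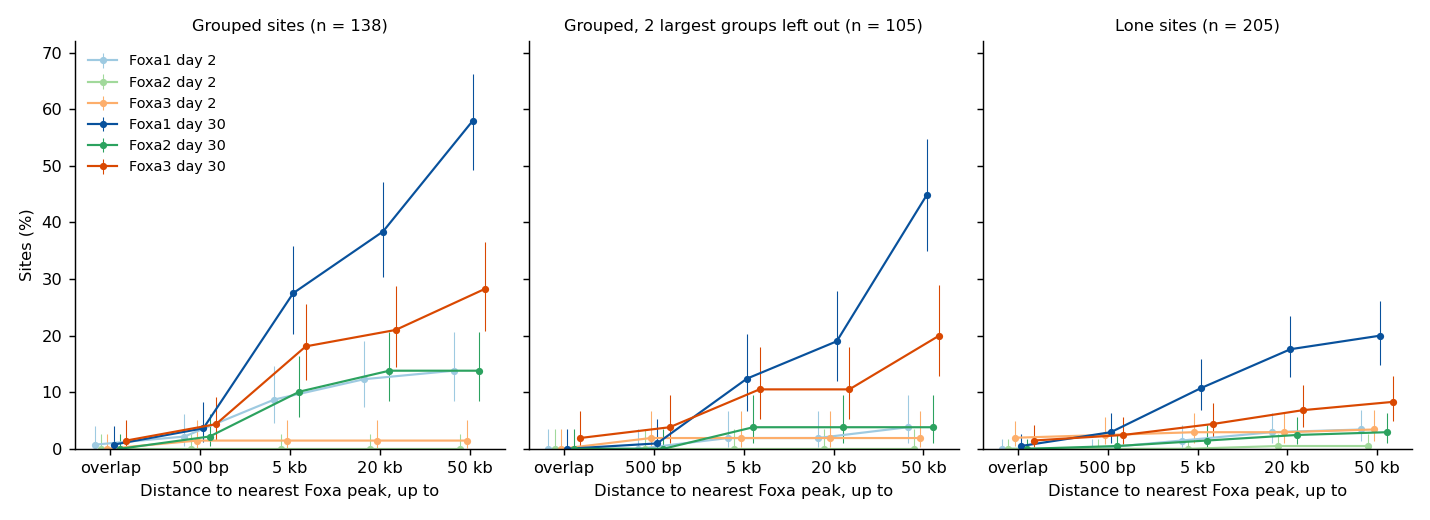
Share of sites (%) with a peak of each Foxa list overlapping or within 500 bp, 5 kb, 20 kb and 50 kb, for grouped sites, grouped sites without the 2 largest groups, and lone sites; bars are exact 95% intervals for counting error, and lines join the distances of 1 list. The Foxa1 day 30 share at 20 kb is 38.4% for grouped sites, 19.0% without the 2 largest groups and 17.6% for lone sites, and at 50 kb it is 58.0% for grouped sites and 44.8% without the 2 largest groups.

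Few groups held a Foxa peak between their first and last base. Foxa3 day 30 peaks lay inside 3 of the 40 groups and overlapped a site in 2 of them, and Foxa1 day 30 peaks lay inside 2 and overlapped a site in 1. Foxa1 day 2, Foxa3 day 2 and Foxa2 day 30 peaks lay inside 1 group each, with an overlap for Foxa1 day 2 alone. The single group with Foxa3 day 2 inside was the pair on chromosome 11 around 101502884 to 101507414, which held 3 such peaks.

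Another 3 lone sites had peaks of 4 Foxa lists within 20 kb, the most of any site. The one on chromosome 12 (81212383 to 81212465, score 9.14) had Foxa3 day 30 at 1360 bp, and Foxa1 day 2, Foxa1 day 30 and Foxa2 day 30 between 3880 and 3921 bp. The one on chromosome 11 (51687647 to 51687731, score 8.67) had Foxa1 and Foxa2 of both days between 17649 and 17672 bp, and was the only site near a Foxa2 day 2 peak. The one on chromosome 9 (62957034 to 62957111, score 6.41) had Foxa1 day 2 and all 3 Foxa proteins of day 30 between 17431 and 17672 bp. At each of them the Foxa1 and Foxa2 peaks lay together and apart from the Hnf4a site.

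Seen from the Foxa lists, the sites touched a small part of each. Of the Foxa1 day 30 peaks 62 of 3331 (1.86%) lay within 20 kb of a site, and of the Foxa3 day 30 peaks 25 of 265 (9.43%). For Foxa2 day 30 the number was 9 of 174 (5.17%), for Foxa3 day 2 19 of 146 (13.0%), for Foxa1 day 2 8 of 442 (1.81%) and for Foxa2 day 2 1 of 23 (4.35%). The 25 Foxa3 day 30 peaks within 20 kb of a site had a median score of 12.7, against 10.3 for the whole list. The 62 Foxa1 day 30 peaks had 11.2, against 10.99.

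None of the 343 sites was listed for Hnf4a on day 2, which allows a share of up to 0.875% (background 0.0%). The day 2 list held 10 peaks, and the nearest of them to any site was 0.240 Mb away. With the depth unknown, absence from the day 2 list, or from any Foxa list, says nothing about whether the factor was bound there.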

How the data were processed

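The Hnf4a ChIP sample of day 30 was set beside the other 7 ChIP samples, each grouped by factor and day from its title. The deposited files are peak lists without a header, 1 per sample. Per the submitters' processing notes BWA 0.6.2, MACS2 2.1.0, bedtools 2.16.2 and mm9 were used, with no role or order given. The peak threshold and the use of inputs are not given in the sources used here. The authors deposited 1 score per peak from their peak calling, taken here as −log10 p because all values exceed 5, since no header or label names it. Positions are printed 1-based.

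Python 3.11.15 with NumPy 2.4.6, pandas 2.3.3 and SciPy 1.17.1 was used, and Matplotlib 3.10.9 for figures. Gaps were measured between peak edges, and sites were chained over gaps of up to 20 kb. Overlap meant at least 1 bp. Shares carry exact Clopper-Pearson 95% intervals, and a count of 0 was given a limit of 3 counts. No test was made, since each factor and day had 1 sample and sites are not replicates. The counting returned every planted group and overlap on simulated lists.

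The members and lists were chosen with earlier results of these data known. Regions named by a set rule were the 6 groups with the most sites, the 5 strongest grouped and lone sites, every overlapping site and the peaks at the bounds; others were picked after their values were seen. They are the sites near 4 lists, the partner site at 101502884 on chromosome 11 and the site on chromosome 8 beside Foxa1. Gene tables of a different build were not used, and sites are given by mm9 position without gene or sequence. Alternatives were stricter scores, merging, other bounds, distances and overlap rules, and leaving out regions in 4 or more lists.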

Additional observations from a re-analysis of the deposited data

How the results depend on the processing

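No paired analysis was possible because each factor and day had 1 sample. Of 211 values recomputed under 16 settings, 166 stayed within their interval, the spread of the sites or 1.5 times the count, and 45 did not; the cause was not tested except where the setting itself makes the change. No difference between grouped and lone sites was tested. The order of their shares overlapping any Foxa list, 2.90% grouped and 3.41% lone, did turn in some settings. It became 4.688% and 3.167% with Hnf4a peaks merged, and 3.472% and 3.015% with linking at 50 kb. With Foxa scores of at least 8 it became 2.174% and 1.951%. In the other settings that recomputed these shares, the lone share stayed the higher. Starting at 3100000 or 4000000 gave 345 and 342 sites, and linking at 5, 10 or 50 kb gave 132, 136 and 144 grouped sites. The settings with the 2 largest groups left out and with the HoxA interval kept were chosen after seeing the data.

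Stricter Hnf4a scores kept fewer peaks by construction. At a score of at least 8 there were 152 sites, 57 grouped in 18 groups, 4 overlapping any Foxa list (0 Foxa1 day 2, 1 Foxa1 day 30, 1 Foxa3 day 30), 0% of grouped sites overlapping, 47 with a Foxa peak within 20 kb and a median lone score of 9.41. At 10 or more there were 66 sites, 21 grouped in 9 groups, 2 overlapping any Foxa list (0 Foxa1 day 2, 2 Foxa3 day 2, 0 Foxa1 day 30, 1 Foxa3 day 30), 0% of grouped sites overlapping, 20 with a near Foxa peak, and median scores of 11.15 grouped and 10.71 lone. With Foxa scores of at least 8, 7 sites overlapped any Foxa list, 2 Foxa3 day 2 and 3 Foxa3 day 30, and 16.1% of lone sites had a near Foxa peak.

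Merging Hnf4a peaks within 500 bp left 285 sites, with 64 grouped in 24 groups and 1 overlap with Foxa2 day 30. An overlap of 50% of the shorter peak left 0 with Foxa1 day 2. With centres within 500 bp, 21 sites matched any Foxa list, 2 Foxa1 day 2, 7 Foxa3 day 2, 10 Foxa1 day 30, 4 Foxa2 day 30 and 9 Foxa3 day 30. A Foxa peak within 5 kb was found for 31.9% of grouped and 15.6% of lone sites, and within 50 kb for 62.3% of grouped sites. Without regions in 4 or more lists, 0 sites overlapped Foxa1 day 2, 1 overlapped Foxa1 day 30 and 32.4% of grouped sites had a near Foxa peak. Without the 2 largest groups these values were 0, 1 and 24.8%. Unknown depth limits every absence from a list.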
